A study of Rattus norvegicus with 7 samples.

Results

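The transcripts described here are the long noncoding RNA loci of the rat retina that Ensembl places in 3 classes: antisense transcripts, sense_intronic transcripts, and processed_transcript, the class for transcripts of a gene that have no open reading frame assigned. Of the 5491 loci with values, 796 belong to these classes and 386 of them are at least 200 bases long. The 150 loci were chosen by their measured level, the mean FPKM over all ages, so their high mean is a property of the selection and not a result. They comprise 128 processed_transcript loci, 17 antisense loci and 5 sense_intronic loci, and they come from 110 transcripts of 66 genes.

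Retinas of Wistar WU rats, untreated and kept on a normal light cycle, were collected at postnatal days 1, 3, 5, 7, 10, 15 and 21 (P1 to P21). Small RNA libraries were made from a pool of 3 retinal RNA samples per age, and the study states that each pool was sequenced 2 times. The deposited values hold 1 FPKM per locus and age, that is, mapped fragments relative to the length of the locus and the size of the library, so no spread between animals can be given and no test between ages was made. A locus is a covered stretch of a transcript, named here by the transcript and by the positions of its first and last base in it.

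An antisense transcript is read from the strand opposite to a gene, a sense_intronic transcript lies in an intron of a gene on the same strand, and a processed transcript is often a spliced form of a coding gene that keeps an intron or lacks part of the coding sequence. Such RNAs can act on their neighbours through transcription, pairing or chromatin, but for most of them no function is known. In a library of small RNA they are seen through short pieces, from specific processing or from breakage of longer RNA, and these cannot be told apart here. During the first 3 postnatal weeks the last neurons and glia of the rat retina are born, photoreceptors mature and the synaptic layers form.

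Most of the 150 loci belong to genes that are known for their proteins. Of the 66 gene symbols, 40 matched a RefSeq gene of GRCr8, and 39 of these are protein-coding. They hold 110 of the 150 loci, all of the processed_transcript class. The remaining match, the antisense gene LOC108352727, is a lncRNA. The reads were mapped to noncoding transcripts only, so a read of the mRNA that shares an exon with a locus would be counted there as well. Whether strand was used in counting is not given in the sources used here, so an antisense transcript and its partner cannot be told apart, and the files do not name the partner genes. Loci of different transcripts of a gene can share reads, and their values are therefore not independent.

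The value of 1 alignment could be read from the steps between low values. At P1, all 1526 values below 200 alignments, at loci of 250 bases or more, lay within 0.05 of a whole number. In the other libraries the low values were sums of 2 or 3 such steps, for all low values from P3 to P15 and 97.0% of 2856 at P21, and alignments were estimated with equal weight for each step, which is an assumption. The estimated depth ranged from 218136 alignments at P15 to 1648133 at P21. At a length of 220 bases 1 alignment at the mean step was worth 25.5 FPKM at P15 and 4.2 FPKM at P21. The 3 alignments taken as the lowest readable level were then 76.5 and 12.6 FPKM. With this weighting, low values at P15 are the coarsest of the series. The steps at P15 were 0.511 and 3.11 in units of the P1 step, so the order of the libraries by depth can change with the weighting. The chosen loci had a median of 48.3 alignments per library, with a range of locus means from 13.1 to 630 alignments, and no locus was at 0 at any age. All intervals below are 95% exact counting intervals of these estimated alignments, and they cover counting error only.

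The retinal markers Mir124-1, Mir124-2 and Mir124-3, miRNAs of neurons, had a summed level that was lowest at P1 with 1020250 FPKM and highest at P21 with 11820000 FPKM. The muscle miRNAs Mir206, Mir133b and Mir1b summed to 165251 FPKM at P3 and 100176 FPKM at P5, and to between 4840 and 11665 FPKM at the other ages. The photoreceptor miRNAs Mir183 and Mir96 summed to between 117463 FPKM at P1 and 1015630 at P10, and the blood miRNAs Mir144 and Mir451a to between 4120 FPKM at P3 and 16876 at P1. At P3 the snoRNAs also held 34.4% of the alignments, against 1.98% to 9.39% elsewhere. The part of these differences in the results below was not tested.

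For 30 of the 66 genes RefSeq promoter windows were at hand, each running from 250 bases before to 50 bases after a gene start. The windows of 3 genes that carry the most contrasting profiles are shown, since these are the nearest genomic sequence that can be printed for them; the starts are those of the RefSeq genes and need not be those of the noncoding transcripts. Nhsl2 holds the locus with the highest mean level, and Fgd1 and Plekha6 hold 3 of the 5 largest falls. Letters in capitals mark the motif TAATCC or its reverse complement GGATTA, the core that the photoreceptor factor CRX binds. For Nhsl2 and Fgd1 the most upstream of 3 and 2 listed starts is given. All are on the plus strand of GRCr8. The Plekha6 loci are annotated on the minus strand of Rnor_6.0, and whether this window has their orientation was not tested.
Nhsl2, chrX:71009690-71009989: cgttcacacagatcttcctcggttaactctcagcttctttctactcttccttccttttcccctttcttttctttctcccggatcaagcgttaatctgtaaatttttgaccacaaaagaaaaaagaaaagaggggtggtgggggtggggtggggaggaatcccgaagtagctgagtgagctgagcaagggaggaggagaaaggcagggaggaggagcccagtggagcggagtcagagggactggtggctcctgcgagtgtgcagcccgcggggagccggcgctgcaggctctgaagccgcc
Fgd1, chrX:23466541-23466840: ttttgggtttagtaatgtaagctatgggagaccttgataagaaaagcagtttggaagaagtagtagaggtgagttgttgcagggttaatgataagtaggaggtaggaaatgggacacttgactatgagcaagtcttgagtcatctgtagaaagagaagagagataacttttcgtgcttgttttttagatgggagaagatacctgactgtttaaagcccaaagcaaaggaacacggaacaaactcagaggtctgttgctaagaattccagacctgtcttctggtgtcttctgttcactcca
Plekha6, chr13:47183159-47183458: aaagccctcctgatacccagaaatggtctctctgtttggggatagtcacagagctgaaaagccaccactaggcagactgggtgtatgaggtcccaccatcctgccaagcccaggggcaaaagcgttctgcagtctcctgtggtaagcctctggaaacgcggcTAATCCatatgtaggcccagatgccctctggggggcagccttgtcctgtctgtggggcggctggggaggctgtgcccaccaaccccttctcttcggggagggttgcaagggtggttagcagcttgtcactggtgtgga
The motif occurs once in the Plekha6 window, with its first base 88 bases before the start, and these letters are not in the other windows shown. Over both strands 7.17% of all 33469 windows of 300 bases hold it, and among the genes of the 150 loci 2 of 30 have it in a window.

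The 3 classes together fell from 8.14% of the estimated alignments at P1 to 2.08% at P21. Processed transcripts held 7.29% (interval 7.19 to 7.38) at P1, 2.35%, 3.69% and 5.29% at P3, P5 and P7, 2.54% at P10, and 2.09% and 1.75% (1.73 to 1.77) at P15 and P21. This share was high at P1 and P7 and lowest at P21, with intervals that do not overlap between these ages. Antisense transcripts held 0.689% (0.659 to 0.720) at P1, 0.241%, 0.452% and 0.606% at P3, P5 and P7, 0.268% at P10, and 0.232% and 0.236% (0.229 to 0.244) at P15 and P21. They followed the same order of high and low ages up to P10 and their intervals at P15 and P21 overlap. Sense_intronic transcripts held 0.161% (0.147 to 0.176) at P1, 0.0832%, 0.108% and 0.116% at P3, P5 and P7, 0.0927% at P10, and 0.0916% and 0.0987% (0.0940 to 0.104) at P15 and P21, the smallest ratio of highest to lowest share among the 3 classes. The lincRNAs, a further class of long noncoding RNA, held 23.0% at P1 and 9.85% at P21. In a pooled tissue, fewer cells that make a transcript and less of it per cell cannot be told apart.

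**Figure D1:**
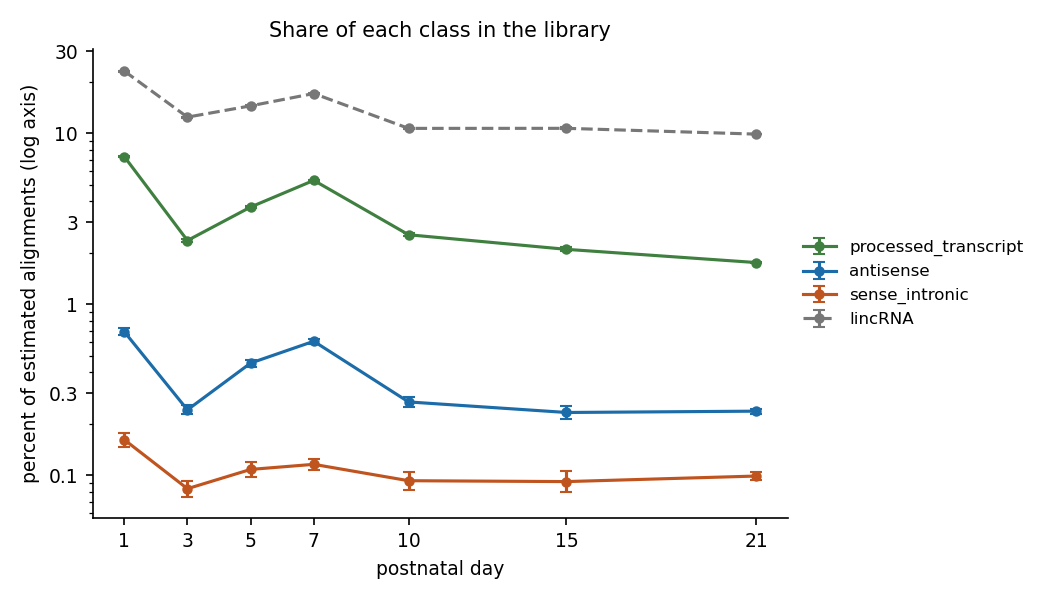
Percent of the estimated alignments of each library (log axis) in the 3 classes and in lincRNA, by postnatal day; points are 1 library per age and bars are 95% exact counting intervals. Processed transcripts fall from 7.29% at P1 to 1.75% at P21 with a dip at P3, and the sense_intronic class changes least.

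The chosen loci were mostly highest at P1 or P7. The highest level lay at P1 for 67 of the 150 loci (44.7%), against 31.8% of the 236 loci of these classes that were not chosen and 25.6% of all 2203 loci of at least 200 bases. The ranking used these same levels, so a locus with a high P1 level entered more easily. The excess at P1 is therefore in part a product of the choice. With members chosen without the P1 level, 59 of 150 were highest at P1. It lay at P7 for 47 (31.3%), against 33.1% and 23.6%, so a peak at P7 was no more frequent than among the loci not chosen. At the remaining 5 ages it lay for 3 to 12 loci each. The lowest level lay at P21 for 50 loci (33.3%), against 14.4% and 14.8%. It lay at P15, the library of the lowest estimated depth, for 64 (42.7%), against 32.2% and 23.8%. P15 was the most frequent lowest age in all of these sets. The median level was 385 FPKM at P1, 233, 270 and 347 at P3, P5 and P7, 205 at P10, and 144 and 145 at P15 and P21. Levels thus dipped at P3, returned at P5 and P7 and were low from P15 on. At P3, 105 of the 150 loci (70.0%) were below both their P1 and their P7 level, as were 46.6% of all loci of at least 200 bases. The libraries of P3 and P5 are those with the muscle miRNAs, and the P3 library is the one with the high snoRNA share.

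**Figure D2:**
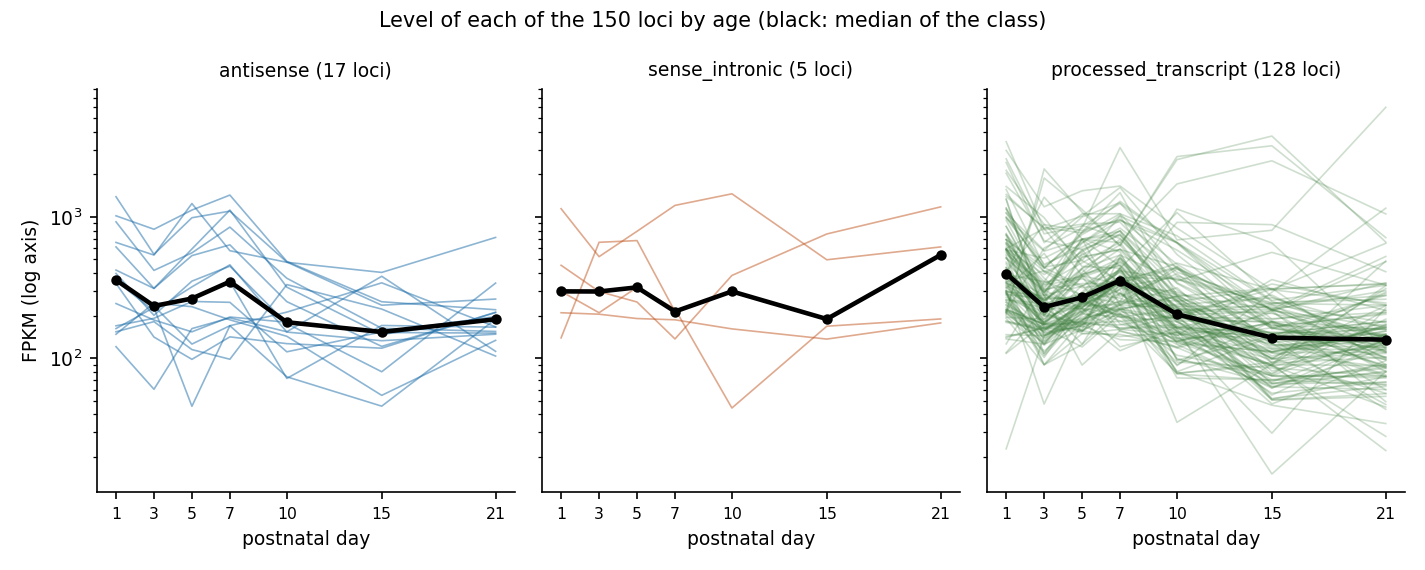
FPKM (log axis) of each of the 150 loci by postnatal day, in 3 panels by class; coloured lines are single loci and the black line is the median of the class. The processed_transcript median is 398 FPKM at P1 and 135 at P21, the antisense median 358 and 189, and the sense_intronic median, over 5 loci, 297 and 538.

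A locus was called lower or higher at P21 than at P1 when log2(FPKM + 1) differed by at least 1, a 2-fold change, and the counting interval of the change left out 0. By this measure 95 of the 150 loci (63.3%) were lower at P21 than at P1, against 26.8% of all 2203 loci of at least 200 bases, and 7 (4.67%) were higher, against 10.5%. The median change was -1.44 over the 150 loci and -0.23 over all 2203. Since the ranking used the same levels, the 236 loci of the 3 classes below the rank limit are given beside them: 72 were lower, 8 were higher and the median change was -0.52. Over all 386 loci of these classes 167 (43.3%) were lower and 15 (3.89%) were higher. A call also needs enough alignments. Their median at P1 was 52.0 for the 150 loci, 14.0 for the 236 and 15.0 for all 2203, so the shares called are not on an equal footing. Among the 386 loci, 154 of 329 processed transcripts, 12 of 42 antisense and 1 of 15 sense_intronic loci were lower. Of the 1694 lincRNA loci 403 were lower and 170 higher. Among the chosen loci, 88 of 128 processed transcripts and 7 of 17 antisense transcripts were lower, while none of the 5 sense_intronic transcripts was. With each library scaled to its miRNA total instead, which moves the P1 levels up by 1.01 on the log2 scale against P21, 14 antisense and 3 sense_intronic loci were lower, and with median-of-ratios scaling 4 and 0. Over all loci of at least 200 bases 51.7% and 21.0% were lower with these scalings. The 7 higher loci were 5 processed transcripts, from Nhsl2, Syne1 and Pebp4, and 2 sense_intronic transcripts. Under the miRNA scaling 2 of them, the Nhsl2 locus and 1 of the Syne1 loci, were higher by this measure, against 3.04% of all loci.

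**Figure D3:**
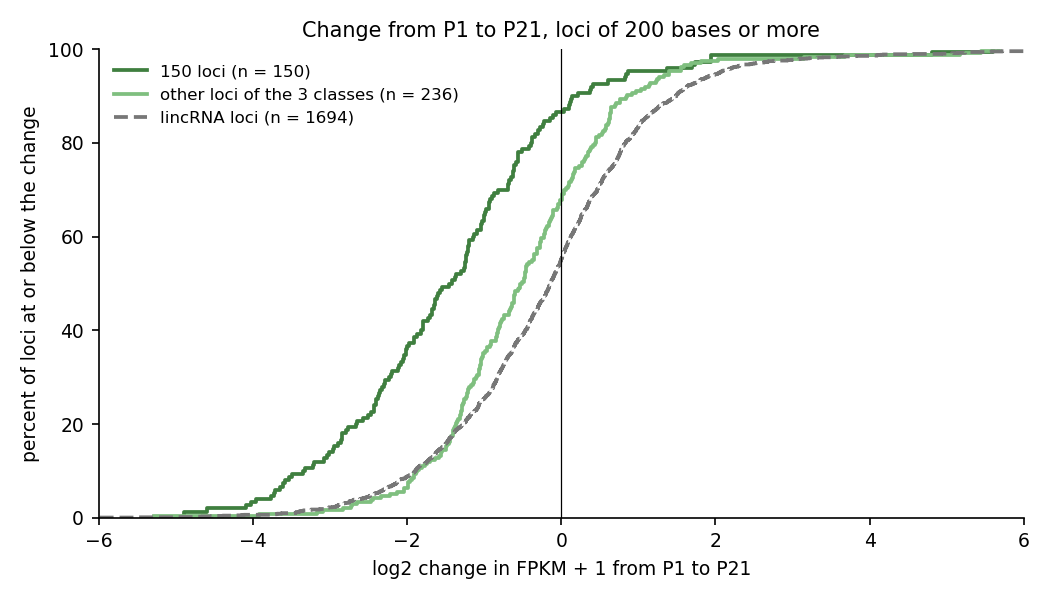
Cumulative percent of loci (vertical axis) at or below a given log2 change in FPKM + 1 from P1 to P21 (horizontal axis), for the 150 loci, the other 236 loci of the 3 classes and 1694 lincRNA loci, all of at least 200 bases. The curve of the 150 loci lies to the left, with a median of -1.44 against -0.52 and -0.14.

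Levels at P21 were also below those at P7. In this comparison 95 of the 150 loci were lower at P21, against 26.1% of all loci, and 4 were higher, against 11.5%. This comparison shares the P21 library with the one above, and the same limits of ranking and alignments hold. The median change was -1.59 over the 150 loci and -0.26 over all loci. Over the 150 loci the highest level was a median of 5.40 times the lowest, with a range from 1.54 to 50.6 times.

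Of the 5 largest falls, 4 were in genes with several of the 150 loci. Fgd1 is an exchange factor that activates the GTPase Cdc42, and 7 of its loci are among the 150. At positions 481 to 810 of transcript ENSRNOT00000093505.1 (Rnor_6.0 chromosome X, 20100942 to 20143871, plus strand) the level was 3410 FPKM at P1, 811, 889 and 919 at P3, P5 and P7, 342 at P10, and 165 and 114 at P15 and P21. The level was highest at P1 and decreased after P7, with a log2 change from P1 to P21 of -4.89 (-5.36 to -4.47). In transcript ENSRNOT00000093576.1, positions 4 to 991 had 2957 FPKM at P1, 1181, 1532 and 1656 at P3, P5 and P7, 833 at P10, and 305 and 246 at P15 and P21. This locus rests on the most alignments at P1, 1332, and its change was -3.58 (-3.76 to -3.42). Both stretches may share reads, as both are from the Fgd1 gene. Of the 7 chosen Fgd1 loci, 4 were lower, and of all 11 Fgd1 loci of at least 200 bases 5 were. Nearer the end of the first transcript, positions 2878 to 3234 had 108 FPKM at P1 and 144 at P21, a change of 0.41 (-0.41 to 1.33), so the loci of this gene did not move as 1 unit.

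Plekha6, a protein with a pleckstrin homology domain, had 6 chosen loci, of which 5 were lower. Of all 9 Plekha6 loci of at least 200 bases, these 5 were lower. Positions 4571 to 4804 of ENSRNOT00000077066.1 (chromosome 13, 50555454 to 50578720, minus strand in Rnor_6.0) had 2429 FPKM at P1, 658, 1051 and 1055 at P3, P5 and P7, 383 at P10, and 239 and 99.3 at P15 and P21, a change of -4.60 (-5.26 to -4.01). In the same transcript, positions 1153 to 2850 had 404 FPKM at P1, 887, 490 and 351 at P3, P5 and P7, 283 at P10, and 222 and 525 at P15 and P21. That change, 0.38 (0.20 to 0.56), was under 2-fold and rests on 1412 alignments at P21. Positions 90 to 374 of ENSRNOT00000076242.1 went from 2039 FPKM at P1 to 119 at P21, a change of -4.08 (-4.62 to -3.61).

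Ugt2b7, a glucuronosyltransferase, had 1 locus (ENSRNOT00000078890.1, positions 58 to 428, chromosome 14, 22645874 to 22658865, plus strand). Its level was 859 FPKM at P1, 293, 155 and 226 at P3, P5 and P7, 151 at P10, and 88.4 and 28.0 at P15 and P21. The change was -4.89 (-5.82 to -4.10), and no later level was above the 293 FPKM of P3. Tnxb, the extracellular matrix protein tenascin-X, had 6 chosen loci, 5 of them lower, and 11 of all its 14 loci of at least 200 bases were lower. Its largest fall was at positions 1799 to 2036 of ENSRNOT00000048985.5 (chromosome 20, 4476866 to 4486493, plus strand), with 376 FPKM at P1, 178, 556 and 339 at P3, P5 and P7, 35.2 at P10, and 90.7 and 22.2 at P15 and P21. The change of -4.02 has a wide interval, -5.62 to -2.78, as it rests on 30 alignments at P1 and 5.94 at P21. Its P10 level rests on 2 alignments.

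Rises were fewer. Nhsl2 belongs to a family of proteins that bind regulators of actin, and 4 of its loci are among the 150. Positions 305 to 524 of ENSRNOT00000057718.5 (chromosome X, 71962985 to 71972810, plus strand) had 211 FPKM at P1, 603, 835 and 3096 at P3, P5 and P7, 688 at P10, and 805 and 5972 at P15 and P21. This is the highest level of any of the 150 loci at any age, with peaks at P7 and P21, and the change from P1 was 4.81 (4.09 to 5.66), from 15.0 to 1421 alignments. Just upstream in the same transcript, positions 16 to 235 had 296 FPKM at P1, 277, 89.4 and 157 at P3, P5 and P7, 118 at P10, and 182 and 84.9 at P15 and P21, a change of -1.79 (-2.78 to -0.86) that was called lower. Further on, positions 2975 to 3272 had 110 FPKM at P1, 432 at P7 and 90.6 at P21, and the locus in ENSRNOT00000076971.1 fell from 507 FPKM at P1 to 166 at P21. The rise in this gene was thus found in 1 of its 4 chosen loci. Of all 7 Nhsl2 loci of at least 200 bases, 1 was higher and 2 were lower.

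Syne1 encodes nesprin-1, a large protein that links the nucleus to the cytoskeleton. Positions 4314 to 4567 of ENSRNOT00000090638.1 (chromosome 1, 41635315 to 41761735, minus strand) had 22.8 FPKM at P1, 144, 217 and 345 at P3, P5 and P7, 88.5 at P10, and 293 and 1154 at P15 and P21. The change of 5.60 (3.79 to 8.71) starts from 2 alignments at P1, so its size is poorly known, but the P21 level was also above all other ages. Positions 380 to 664 of ENSRNOT00000084571.1 had 126 FPKM at P1, 345, 377 and 175 at P3, P5 and P7, 139 at P10, and 90.1 and 487 at P15 and P21, a change of 1.94 (1.13 to 2.88). A different Syne1 locus, positions 2974 to 3335 of that transcript, changed by 0.82 (0.23 to 1.47), under the 2-fold limit. Of the related gene Syne2, which encodes nesprin-2, 2 of 3 chosen loci were lower, and 4 of all 13 loci of at least 200 bases.

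Pebp4, of the phosphatidylethanolamine-binding protein family, had 2 loci, in transcripts of nearly the same span (chromosome 15, 51535864 to 51740281 and 51535876 to 51740160, plus strand). Positions 58 to 371 of ENSRNOT00000093193.1 had 205 FPKM at P1, 2188, 1080 and 628 at P3, P5 and P7, 2547 at P10, and 3739 and 664 at P15 and P21. Positions 21 to 361 of ENSRNOT00000039454.6 had 214, 1887, 1131, 625, 2676, 3191 and 714 FPKM at the same ages. The profiles are nearly identical, and the 2 loci may count the same reads. Both had peaks at P3 and at P10 to P15, and their changes from P1 to P21, 1.69 (1.09 to 2.36) and 1.73 (1.18 to 2.35), are smaller than those from P1 to P15. A late peak was also found at 1 of 2 chosen loci of Ccdc171, a coiled-coil protein: positions 2166 to 2397 of ENSRNOT00000036233.5 (chromosome 5, 101648516 to 101935795, plus strand) had 586 FPKM at P1, 511, 696 and 660 at P3, P5 and P7, 1713 at P10, and 2498 and 1051 at P15 and P21. Its change from P1 to P21 was 0.84 (0.38 to 1.33), under the 2-fold limit. The other Ccdc171 locus went the opposite way: positions 1820 to 2129 of ENSRNOT00000075971.2 had 416 FPKM at P1, 245, 165 and 222 at P3, P5 and P7, 274 at P10, and 313 and 89.9 at P15 and P21, a change of -2.20 (-2.87 to -1.54).

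**Figure D4:**
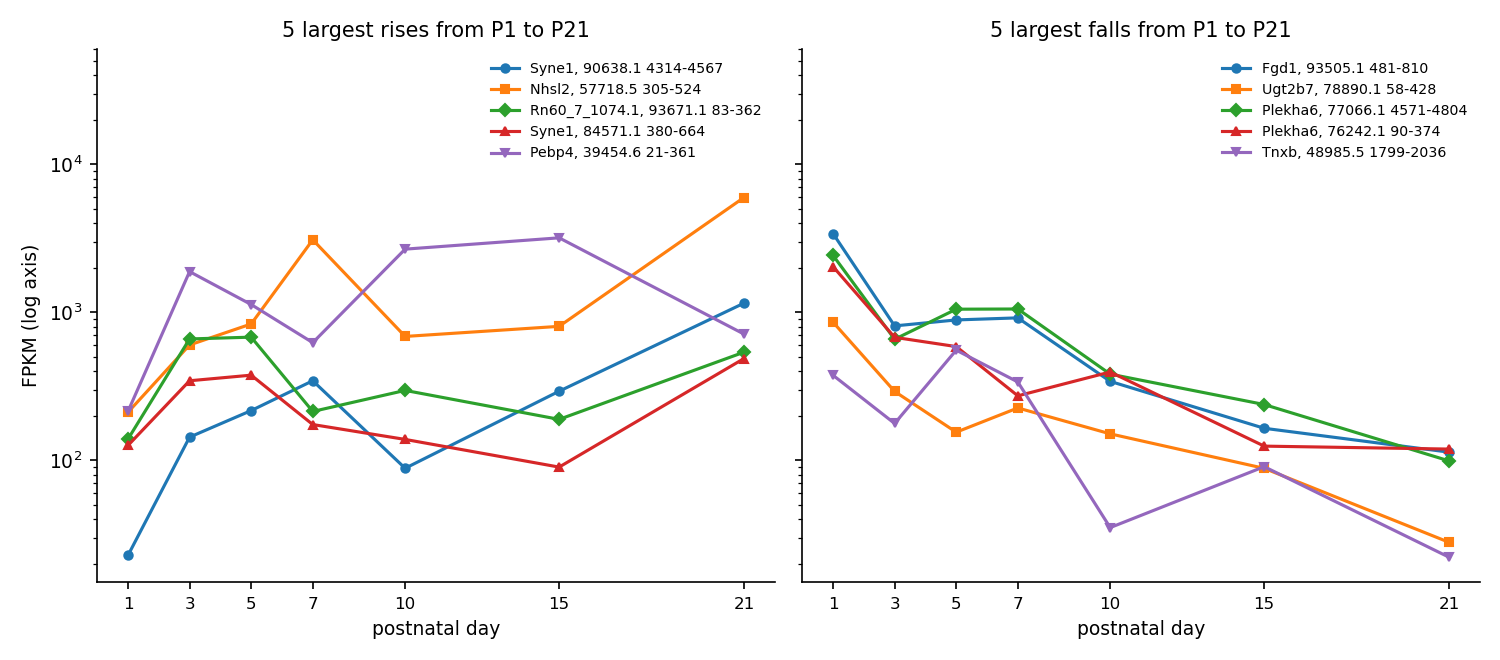
FPKM (log axis) by postnatal day for the 5 loci with the largest rise and the 5 with the largest fall from P1 to P21, each line 1 locus, named by gene, end of the transcript name and positions. The Nhsl2 locus reaches 5972 FPKM at P21 and the Syne1 locus starts at 22.8 FPKM, while all 5 falling loci lie between 22.2 and 119 FPKM at P21.

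The 5 sense_intronic transcripts differed from one another. Rn60_20_0069.2 (ENSRNOT00000093623.1, positions 80 to 336, chromosome 20, 6856005 to 6858683, minus strand) was the most abundant, with 1144 FPKM at P1, 523, 792 and 1207 at P3, P5 and P7, 1459 at P10, and 498 and 614 at P15 and P21. It was highest at P10, and its change from P1 to P21 was -0.90 (-1.25 to -0.53), under 2-fold. Rn60_5_0285.4 (ENSRNOT00000093371.1, positions 720 to 978, chromosome 5, 28436092 to 28437192, plus strand) had 455 FPKM at P1, 297, 250 and 137 at P3, P5 and P7, 385 at P10, and 758 and 1179 at P15 and P21. It was lowest at P7 and higher at each later age, with a change from P1 to P21 of 1.37 (0.91 to 1.88). Rn60_7_1074.1 (ENSRNOT00000093671.1, positions 83 to 362, chromosome 7, 107326953 to 107338324, minus strand) had 139 FPKM at P1, 662, 680 and 214 at P3, P5 and P7, 297 at P10, and 189 and 538 at P15 and P21. It was high at P3, P5 and P21, and its change was 1.94 (1.17 to 2.85). Rn60_3_0144.3 (chromosome 3, 14308649 to 14309301, plus strand) had 297 FPKM at P1, 44.4 at P10, where it was lowest, and 190 at P21. Rn60_20_0069.1 (chromosome 20, 6845447 to 6845947, minus strand) ranged only from 137 FPKM at P15 to 210 at P1.

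The 17 antisense loci come from 14 genes, and 7 were lower at P21 than at P1, none higher. Over all 42 antisense loci of at least 200 bases, 12 (28.6%) were lower, 3 were higher and the median change was -0.22. This share lies near the 26.8% of all 2203 loci, so it is no result about the class. Among the 17 loci the most abundant was of LOC102555023 (chromosome 18, plus strand), a gene with 3 loci in 3 transcripts. Positions 10 to 310 of ENSRNOT00000030993.6 (12638770 to 12641042) had 1019 FPKM at P1, 818, 1119 and 1429 at P3, P5 and P7, 484 at P10, and 251 and 220 at P15 and P21, a change of -2.20 (-2.64 to -1.79). The long locus of ENSRNOT00000092884.1, positions 4 to 1294, had 398 FPKM at P1, 448 at P7, 80.2 at P15 and 340 at P21, a change of -0.23 (-0.44 to -0.01), an interval that does not overlap that of the first locus. Rn50_20_0041.3 (ENSRNOT00000078468.1, positions 4 to 308, chromosome 20, 2020309 to 2025767, plus strand) had 1391 FPKM at P1, 544, 987 and 1100 at P3, P5 and P7, 480 at P10, and 237 and 262 at P15 and P21, a change of -2.40 (-2.79 to -2.04). Its levels at P15 and P21 were below those at every earlier age.

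Rn60_12_0127.3 (ENSRNOT00000092259.1, positions 10 to 539, chromosome 12, 12638507 to 12639167, minus strand) had the largest antisense fall, -2.57 (-2.92 to -2.25), with 924 FPKM at P1, 419, 557 and 848 at P3, P5 and P7, 368 at P10, and 163 and 155 at P15 and P21. Rn50_X_1141.2 (ENSRNOT00000075905.1, positions 14 to 330, chromosome X, 115559900 to 115561542, minus strand) peaked at P7 with 1119 FPKM, between 421 at P1 and 190 at P21, a change of -1.14 (-1.68 to -0.60). Rn60_1_2216.1 (ENSRNOT00000092826.1, positions 11 to 393, chromosome 1, 221508159 to 221512116, plus strand) stood apart among the abundant antisense loci. It had 660 FPKM at P1, 537, 1245 and 577 at P3, P5 and P7, 478 at P10, and 405 and 716 at P15 and P21, with a change of 0.12 (-0.21 to 0.45).

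The processed transcripts were grouped by what the proteins of their genes do, in groups formed with the values known, so the counts describe the loci and support nothing further. The groups hold 75 of the 150 loci. Each count is to be read against the share of lower loci, 63.3% of the 150 loci and 26.8% of all loci. Within the processed_transcript class it was 68.8% of the 128 chosen loci and 46.8% of all 329. Counts are also given over all loci of at least 200 bases in the same genes, chosen or not. Of 29 loci in 7 genes of synapses and neuronal adhesion, 23 (79.3%) were lower, none higher, and the median change was -2.30. Over all 79 loci of these genes 48 were lower, 1 was higher and the median was -1.27. Cacna1i, a T-type calcium channel, had all 7 chosen loci lower. At positions 1 to 398 of ENSRNOT00000086192.1 its level was 1064 FPKM at P1, 580, 999 and 1262 at P3, P5 and P7, 429 at P10, and 169 and 205 at P15 and P21. Sdk1, an adhesion protein that guides synapses to their layers in the retina, had 6 of 7 loci lower. Its locus at positions 4649 to 4920 of ENSRNOT00000031149.6 went from 2579 FPKM at P1 through 760, 862 and 1244 at P3, P5 and P7, 652 at P10 and 165 at P15 to 210 at P21, a change of -3.61 (-4.03 to -3.23). Bai1, an adhesion receptor now named Adgrb1, had 6 of 8 chosen loci lower, and Csmd3 2 of 2, with changes of -3.96 and -2.89. Over all loci of at least 200 bases, chosen or not, 14 of 20 were lower for Cacna1i and 12 of 16 for Sdk1. For Bai1 11 of 20 were lower, with a median change of -1.07, and for Csmd3 2 of 5, with a median of -0.82.

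Among genes of the extracellular matrix and its receptors, 16 of 19 loci (84.2%) in 5 genes were lower, none was higher, and the median change was -2.04. Over all 49 loci of these genes 27 were lower, 1 was higher and the median was -1.17. Col6a3, a chain of type VI collagen, had all 6 chosen loci lower. Itgb5, an integrin subunit that the pigment epithelium uses to take up photoreceptor outer segments, had 2 of 2 chosen loci lower. Over all loci of at least 200 bases, 9 of 18 were lower for Col6a3. For Itgb5 3 of 8 were lower and 1 was higher, with a median change of -0.59. The more abundant chosen Itgb5 locus, positions 4 to 389 of ENSRNOT00000076955.2, had 1445 FPKM at P1, 826, 1014 and 1617 at P3, P5 and P7, 543 at P10, and 161 and 279 at P15 and P21. For chromatin and transcription, 9 of 15 loci in 6 genes were lower and the median change was -1.79, and over all 35 loci of these genes 15 were lower and the median was -0.83. This share lies near that of the 150 loci, so it is no result about the group. Trrap, a scaffold of histone acetyltransferase complexes, had 6 of 6 chosen loci lower, with 1394 FPKM at P1 and 138 at P21 at its most abundant locus. In contrast, Mlxipl, a transcription factor of glucose metabolism, had 1 of 4 chosen loci lower. Over all loci of at least 200 bases, 9 of 17 were lower for Trrap and 1 of 6 for Mlxipl.

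The nuclear envelope and centrosome group, with Syne1, Syne2 and Cep128, had 3 of 8 loci (37.5%) lower, 2 higher and a median change of -0.24. Over all 30 loci of these genes 6 were lower, 2 were higher and the median was -0.25. In RNA decay and translation, 3 of 4 loci of Rc3h1, Smg1 and Eif4e1b were lower and the median change was -1.72, and over all 10 loci of these genes 3 were lower and the median was -0.89. Dct, an enzyme of melanin synthesis, had 2 of 2 chosen loci lower, with changes of -1.23 and -1.79, and 3 of 3 over all its loci of at least 200 bases. The miRNAs Mir204 and Mir211, listed here for pigment epithelium, summed to 87709 FPKM at P1 and 483914 at P21. Whether they follow the amount of pigment epithelium in these pools was not tested. Of the 36 host genes of miRNAs and snoRNAs and the 35 lncRNAs known from retina and neurons on the lists, none is among the 150 loci; of the latter, Tug1 and Pvt1 have values, as lincRNA.

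The change was measured at several places in 18 genes with 3 or more loci each, 88 loci in all, of which 58 were lower. Within a gene the changes spanned a median of 2.24 on the log2 scale, from 0.23 in Rn50_10_0891.3 to 6.60 in Nhsl2. The medians over the chosen loci lay between -2.96 for Fgd1 and 1.94 for Syne1. Over all loci of at least 200 bases in the same 18 genes, 200 in number, 98 were lower and 4 higher, and the gene medians lay between -1.87 for Cacna1i and 0.15 for Syne1. The 11 Fgd1 loci then had a median of -0.94, and of the 14 Syne1 loci 2 were higher and 1 was lower. In 29 of the 66 genes every chosen locus was lower and in 46 at least 1 was. Among the chosen loci Nhsl2 was the 1 gene with a lower and a higher locus, and over all loci of the 66 genes 6 had both, among them Ccdc171, Itgb5 and Syne1.

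**Figure D5:**
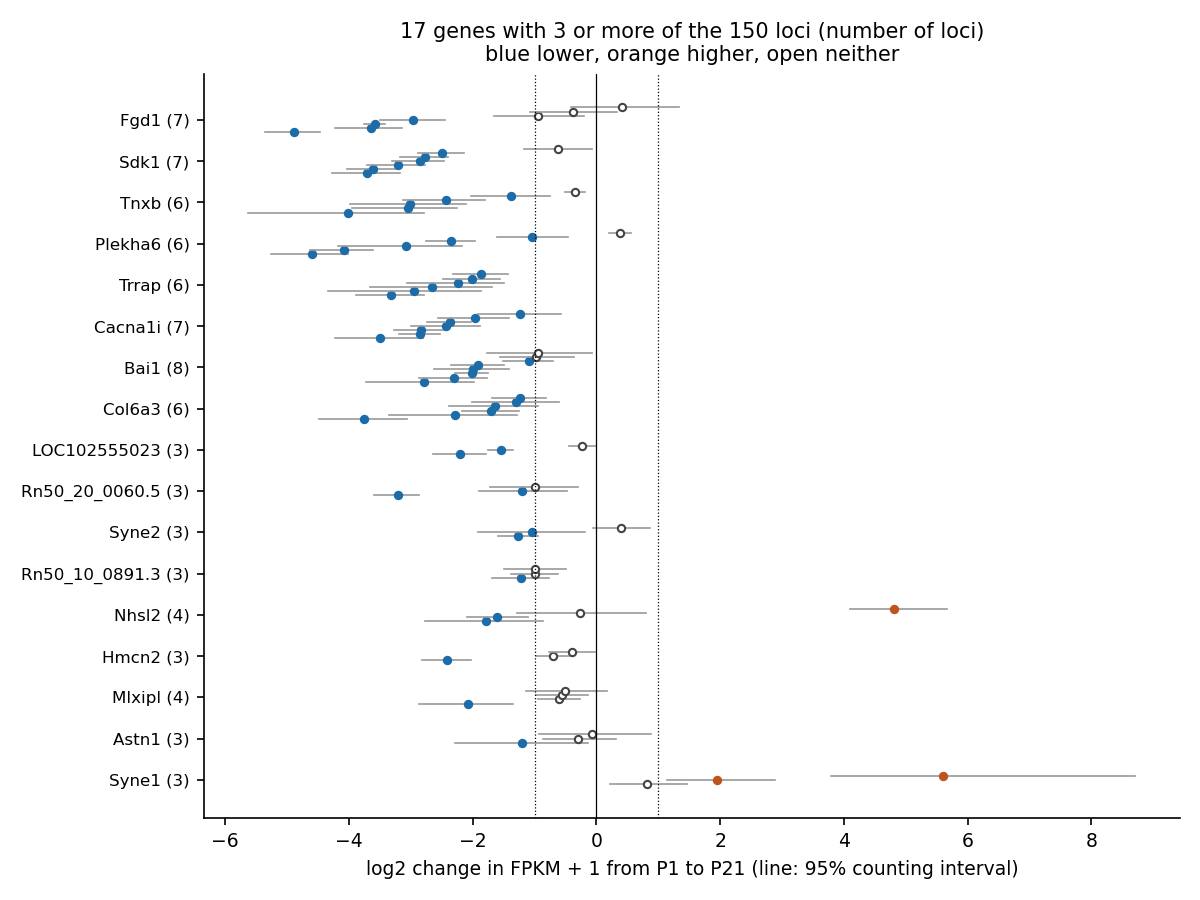
Log2 change in FPKM + 1 from P1 to P21 (horizontal axis) of each locus in 17 of the 18 genes with 3 or more of the 150 loci; points are loci, lines are 95% counting intervals, and dotted lines mark the 2-fold limits. All chosen loci of Trrap, Cacna1i and Col6a3 are lower, while 1 Nhsl2 locus lies at 4.81 and the 3 chosen Syne1 loci have a median of 1.94, against 0.15 over all 14 loci of that gene.

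The position of the loci in their transcripts was not used in the choice. Of the 150 loci 50 began within the first 50 bases of the transcript, or 33.3%, against 9.75% of the 236 loci below the rank limit. For processed transcripts these shares were 29.7% and 6.47%, and for antisense transcripts 64.7% and 28.0%. The median change was -1.61 for the 50 loci near the start of the transcript, of which 36 were lower, and -1.27 for the other 100, of which 59 were lower. The 7 chosen antisense loci called lower were near the start, but of the antisense loci not chosen 0 of 7 near the start and 5 of 18 elsewhere were lower. The loci were short, with a median length of 333 bases, and 62 were under 300 bases. Chromosomes 12, 20 and 7 held 17.3%, 15.3% and 12.0% of the loci, near the 14.8%, 17.1% and 12.7% of all 386 loci of these classes.

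The overlap with short RNAs was examined from the annotated spans. None of the 150 loci lies in a transcript whose span overlaps a miRNA or snoRNA feature of the file. A 7SK feature lies within the span of Ccdc171, on the opposite strand, for 2 loci, and another 7SK feature within Dock10, on the same strand, for 1 locus. The 7SK feature in Ccdc171 had 106 FPKM at P1, 42.0, 168 and 125 at P3, P5 and P7, 74.3 at P10, and 177 and 215 at P15 and P21. The locus at positions 2166 to 2397 was highest at P15, and whether its reads come from this feature was not tested. Exons and introns were not compared, as no annotation of the files' build was used here.

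At the rank limit the levels were close. Just inside it, a locus of Syne2 had a mean of 160.8 FPKM. The first loci left out, of Grm4 and Gtf2ird2, had means of 159.0 and 157.6 FPKM.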

How the data were processed

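Per the labels, total RNA of pooled Wistar WU retinas was made into small RNA libraries for Ion Torrent sequencing. The authors mapped trimmed reads to Ensembl noncoding RNAs and deposited FPKM values from Cufflinks and Cuffdiff (version 2.2.1.3 in the submitters' processing notes) on Rnor_6.0. The deposited table also holds their fold changes, test statistics, p-values and q-values for 21 pairs of ages, which were not used. Rows without a locus (933264 of 1048575) were left out.

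The 1 FPKM value per locus and age was taken through the age names. Members and lists were chosen with earlier results of these data known. Alignments were estimated for loci of at least 50 bases from the value steps, and the procedure was tested on simulated data. Changes are differences of log2(FPKM + 1), with Clopper-Pearson intervals of the estimated alignments, and no count model was fitted, since FPKM are not counts. PCR copies of a molecule are counted as separate alignments, which the intervals leave out. Named were the 5 loci per class with the highest mean, the 5 largest rises and falls among loci with at least 20 alignments at P1 and P21 together, loci overlapping a miRNA, and members of 2 symbol lists. Further loci were named after their values were seen, and 1 gene is not reported here. A short feature was one of a short RNA biotype whose covered locus was under 200 bases, whatever its annotated span. Alternatives were 2 scalings, pseudocounts of 0.1 and 10, a 4-fold limit, other lengths and choices of members. Python 3.11.15, numpy 2.4.6, pandas 2.3.3, scipy 1.17.1 and matplotlib 3.10.9 were used.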

Additional observations from a re-analysis of the deposited data

How the results depend on the processing

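The count of loci lower at P21 than at P1 was 95 as reported, 130 with each library scaled to its miRNA total and 79 with median-of-ratios scaling. Against P21 these scalings shift the P1 levels by 1.01 and -0.27 on the log2 scale, and with them 51.7% and 21.0% of all loci of at least 200 bases were lower. All 95 lower loci were also lower with the first scaling, and 79 of them with the second. The count of higher loci was 7 as reported, 2 with the miRNA scaling, namely the Nhsl2 locus and a Syne1 locus, and 10 with median-of-ratios scaling. Over all loci of at least 200 bases 10.5%, 3.04% and 15.4% were higher, so the count moved with the scaling as it did for all loci. The rises of Pebp4, Rn60_5_0285.4, Rn60_7_1074.1 and the second Syne1 locus are thus calls that depend on the scaling. A 4-fold limit left 54 lower and 2 higher loci. A minimum length of 500 bases, which 80 loci meet, left 43 lower and 1 higher. The share over all loci was not computed for either setting. Added after the data were seen, all 386 loci without ranking gave 167 lower and 15 higher. With 1 locus per gene, 36 were lower and 5 higher of 66. Other numbers of loci enter here, but the share also moved. It was 63.3% lower over the 150 loci and 43.3% over the 386 without ranking.

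With members chosen again without 1 age, the lower count ranged from 89 to 98 and the higher count stayed at 7, and loci highest at P1 ranged from 59 to 71 and at P7 from 41 to 50.

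The class shares at P1 and P21 were, by summed FPKM, 26.7% and 6.51% for processed_transcript, 4.37% and 0.446% for antisense, and 0.0731% and 0.0486% for sense_intronic. These sums include the loci under 50 bases, which make up 82.3% to 99.3% of them. Counting the 150 loci only, they were 4.31% and 0.936%, 0.513% and 0.149%, and 0.0766% and 0.0541%. Without the 3 loci with the most alignments of each class, they were 6.57% and 1.57%, 0.447% and 0.147%, and 0.0950% and 0.0557%. In each of these settings the share was lower at P21 than at P1. Overlap with a short feature on the same strand was found for 1 locus in place of 3.

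No paired analysis was possible because there is 1 library per age. Variation between animals is not measured. At P15, the library of the lowest estimated depth, levels under 76.5 FPKM at 220 bases rest on fewer than 3 alignments when counted at the mean step. As the steps there were 0.511 and 3.11 in units of the P1 step, the real number can differ.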

Other observations

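Loci under 200 bases of the same classes were outside the choice. Of 316 processed_transcript loci of at least 50 and under 200 bases, 136 were lower and 14 higher at P21 than at P1, with a median log2 change of -1.33, close to the -1.01 of the 329 longer loci of that class. Of 24 antisense loci of this length, 6 were lower and 2 higher, with a median change of 0.31. These loci held 20.7% of the alignments of the processed_transcript class and 10.3% of those of the antisense class. The share called over all loci of this length was not computed, so these counts are no result about the classes. The 62 processed_transcript loci under 50 bases reached 5340000 FPKM, but alignments could not be estimated at this length, and their levels are not comparable with those of longer loci.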
